A study of Homo sapiens with 36 samples.

Results

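AP-1 is a family of transcription factors that bind DNA as dimers through a basic region and a leucine zipper (bZIP). Here, 10 of its genes and close bZIP relatives were followed in A549 cells, an established human lung adenocarcinoma line, during and after a long exposure to the inflammatory cytokine IL-1β. The members are the Jun genes JUN, JUNB and JUND, the Fos genes FOS, FOSB, FOSL1 (which encodes Fra-1) and FOSL2 (Fra-2), and the related genes ATF3, MAFF and BATF3. They were chosen by name, through their Ensembl identifiers, as 10 of the 63677 genes listed, with earlier results of these data known. All 10 were among the 19180 genes with enough reads to be tested. Cells were grown in RPMI with fetal bovine serum, either untreated (control) or with IL-1β at 1 ng/ml renewed at each split. Collections during exposure were on days 6, 15 and 21. After 21 days IL-1β was withdrawn, and cells were collected 6, 15 and 30 days later. Each collection had its own untreated control. With 3 labelled biological replicates in each of 12 groups there were 36 RNA-seq libraries. No source used here says whether libraries of the same replicate number came from one culture followed over time.

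Jun proteins pair with one another or with Fos proteins, whereas Fos proteins do not form stable dimers among themselves. Growth factors and inflammatory cytokines raise AP-1 activity through the ERK, JNK and p38 kinases, which act on the RNA of some members and on the protein of others. FOS, FOSB and JUNB are textbook immediate early genes, with brief bursts of RNA after a stimulus, while JUND is commonly described as steadily expressed. In carcinoma cells, Fra-1 and c-JUN are known for roles in motility and in epithelial-mesenchymal transition (EMT). The study asked whether a MAPK, AP-1 and SLUG axis takes part in EMT under IL-1β and in its persistence after withdrawal, so the level of each member with IL-1β and after it is the comparison its design implies. Its inhibition experiments placed this axis in the early EMT and reported that blocking it later did not reverse the established EMT. Only RNA was measured here, and phosphorylation or protein levels of these factors are not in the files.

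Counts on genes ranged from 9116032 to 23570026 per library. In 11 libraries, 11.8% to 24.6% of these counts lay on mitochondrial genes, against 5.61% to 7.75% in the other 25. These libraries with a high mitochondrial share were 6 control and 5 IL-1β libraries, 8 of the 11 were replicate 2, and 8 of the 11 were collected after withdrawal. Without them, the controls of days 6 and 15 after withdrawal are 1 library each, which a fit must assume to vary like the other groups. The epithelial keratin genes KRT7, KRT8 and KRT18 were present in all 36 libraries (KRT7 at 1146 to 2189 CPM, that is counts scaled to the size of the library), while KRT19 had 3 or fewer counts in 35 and EPCAM was low, at 0.232 to 1.63 CPM. KRT8 and KRT18 fell with IL-1β at all 3 exposure time points (log2 fold changes at day 6 of -2.09 and -1.83), and KRT18 was also called lower at day 6 after withdrawal (-1.21). CD3E, which defines T cells, had 0 counts in every library, and PTPRC, MS4A1 and CDH5, which mark leukocytes, B cells and endothelium, had 3 or fewer in all 36. The 11 markers of other cell types summed to 4.07 to 19 CPM per library, most of it from CD14 and the fibroblast collagen gene COL1A1. CD14 reached 1.67 to 16.4 CPM and COL1A1 0.798 to 3.44 CPM, and COL1A1 passed the test at day 6 (log2 fold change 1.02) and day 21 (1.24) of IL-1β.

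Of the 10 members, JUN, FOSL1 and MAFF rose with IL-1β, and no member fell past the thresholds at any time point. Differential expression was called at an adjusted p under 0.05 by the quasi-likelihood test of edgeR, adjusted over 19180 genes by the Benjamini-Hochberg method, and a fold change over 2. At day 6, 3 of 10 members were higher, JUN, FOSL1 and MAFF, beside 1.52% of all genes tested. At day 15, JUN and FOSL1 were higher (2 of 10, background 1.94%), and at day 21 the 3 members of day 6 were higher again (background 2.19%). At day 6 after withdrawal JUN alone passed (1 of 10, background 1.08%), and at days 15 and 30 after withdrawal 0 of 10 passed (backgrounds 0.594% and 0.433%). At those last time points, 1 and 4 members had an unadjusted p under 0.05, beside 1679 and 1602 of the 19180 genes tested. They were JUN at day 15 and JUN, FOS, FOSL1 and FOSL2 at day 30. DESeq2's Wald test also called 0 at both time points. Lower calls numbered 0 of 10 at each time point in the order of collection, where 1.25%, 2.3%, 2.06%, 0.725%, 0.36% and 0.464% of all genes were called lower. DESeq2's Wald test also called 0 lower, and at an unadjusted p under 0.05 FOS and ATF3 were lower at day 15 and FOS at days 6 and 30 after withdrawal. At day 15 and at days 6 and 30 after withdrawal, 3280, 1840 and 1602 of all genes tested had such a p in either direction. The median log2 fold change of the 10 members stayed between -0.15 and 0.32, beside medians of -0.02 to 0.02 over all genes tested.

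**Figure D1:**
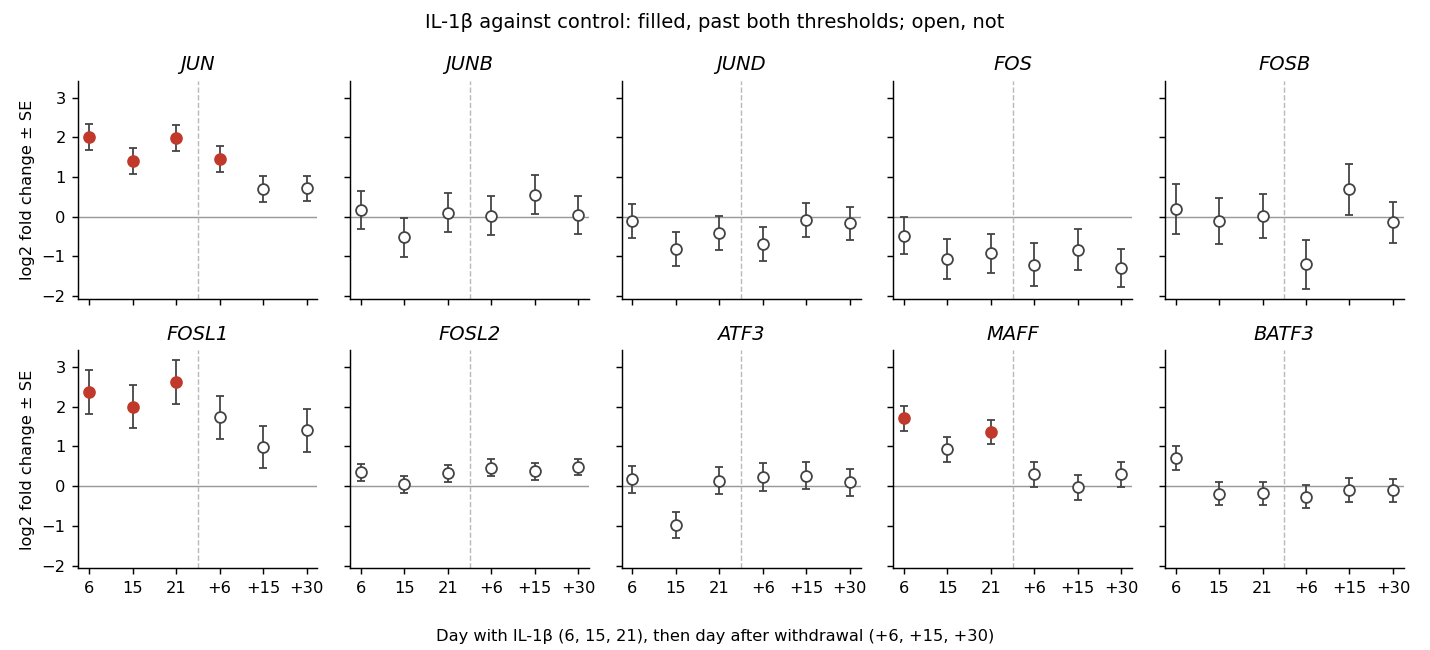
Log2 fold change of IL-1β against control (vertical axis, ± SE of the fit) for the 10 members at the 6 time points (horizontal axis, day with IL-1β and then day after withdrawal, 3 libraries per group). Filled points passed both thresholds, which JUN did at 4 time points, FOSL1 at 3 and MAFF at 2, and all points of FOS lie below 0.

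RefSeq promoter windows of GRCh38.p14 matched 8 of the 10 members (JUN, JUNB, JUND, FOS, FOSB and FOSL2 with 1 start each, ATF3 and MAFF with 2), and FOSL1 and BATF3 had none in the table. In the 250 bases before each start, both strands were searched for 5 motifs. These were the AP-1 element TGANTCA, the cyclic AMP response element TGACGTCA, the AP-1-like octamer TGACATCA, and the κB and CArG motifs. TGANTCA was in 0 of these 10 windows and in 6.57% of all 35116 windows, and the CArG motif was in 0 and in 1.16%. TGACGTCA was in 1 JUND and 1 MAFF window (1.65% of all windows), TGACATCA in the JUN window and 1 ATF3 window (2.37%), and the κB motif in the other MAFF window (5.21%). No match of one motif overlapped a match of another. The windows of JUN and MAFF, whose RNA rose, and of JUND, which shares the MAFF octamer and was not called at any time point, are shown 5′ to 3′ on the gene's strand with the matched octamer in capitals. Those of JUN (chr1:58784048-58784297, minus strand) and JUND (chr19:18281623-18281872, minus strand) have it at bases -67 and -200 from the start, and that of MAFF (chr22:38201744-38201993, plus strand) at base -54.
JUN: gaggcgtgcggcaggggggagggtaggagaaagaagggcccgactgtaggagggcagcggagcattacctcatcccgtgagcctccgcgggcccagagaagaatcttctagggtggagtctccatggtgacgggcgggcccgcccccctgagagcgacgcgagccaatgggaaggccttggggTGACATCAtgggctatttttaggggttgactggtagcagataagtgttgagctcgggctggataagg
MAFF: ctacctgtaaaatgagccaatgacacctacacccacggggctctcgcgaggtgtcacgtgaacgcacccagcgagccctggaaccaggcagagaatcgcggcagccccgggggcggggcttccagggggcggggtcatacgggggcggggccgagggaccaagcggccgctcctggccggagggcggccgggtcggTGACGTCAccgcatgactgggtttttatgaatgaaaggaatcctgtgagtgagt
JUND: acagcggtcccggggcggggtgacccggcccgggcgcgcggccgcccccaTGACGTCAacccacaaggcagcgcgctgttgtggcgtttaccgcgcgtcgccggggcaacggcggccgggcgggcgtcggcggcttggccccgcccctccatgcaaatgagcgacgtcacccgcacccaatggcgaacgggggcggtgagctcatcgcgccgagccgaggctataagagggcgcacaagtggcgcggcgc
The same octamer therefore lies before a gene that rose and one that was not called, and no use of these sites was measured.

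JUN (chr1:59242517-59249720 in GRCh37, minus strand) encodes c-JUN, the Jun protein with the strongest activating function. At day 6, JUN stood at 16.7, 14.5 and 14.4 CPM in the 3 controls and at 67.3, 54.4 and 62.2 CPM with IL-1β, a 4.03-fold rise (log2 fold change 2.01 ± 0.32 SE, edgeR adjusted p = 0.000123). At day 15 the controls had 24.4, 22.8 and 14.7 CPM and the IL-1β libraries 66, 71.9 and 25.6 CPM (log2 fold change 1.41 ± 0.32, adjusted p = 0.00432). The third IL-1β library of that day, which has a high mitochondrial share, stood just above the highest control, and the log2 fold change was 1.75 without such libraries. At day 21, JUN was at 25.2, 23.4 and 16.1 CPM in controls and at 90.9, 98.8 and 65.2 CPM with IL-1β (log2 fold change 1.98 ± 0.32, adjusted p = 9.27e-05). The groups did not overlap at any of the 3 exposure time points. The day 15 call was lost in the separate fit of that time point (adjusted p = 0.149), without replicate 1 (0.188) and without replicate 2 (0.0956), whereas those of days 6 and 21 were kept in all 10 alternatives.

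After withdrawal JUN was called at the first of the 3 collections. At day 6 after IL-1β was removed, JUN was still at 60.5, 52.2 and 35.7 CPM against 23.6, 18.8 and 12.2 CPM (log2 fold change 1.45 ± 0.32, adjusted p = 0.00786), again without overlap. This call was kept in 7 of 10 alternative analyses and was lost in the separate fit of that time point and without replicate 1 or replicate 2. By day 15 the previously exposed cells had 27.9, 20.4 and 35.1 CPM against 15.2, 15.2 and 21 CPM (log2 fold change 0.70 ± 0.32, adjusted p = 0.504), and 1 of the 3 lay below the highest control. At day 30 the values were 27.2, 25 and 13.6 CPM against 15.6, 13.1 and 11.3 CPM (log2 fold change 0.71 ± 0.32, adjusted p = 0.511), with the third replicate inside the control range. In an average over the 3 collections after withdrawal, chosen after seeing the data, JUN was higher by 0.96 on the log2 scale (SE 0.18, adjusted p = 0.000622).

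FOSL1 (chr11:65659520-65668044, minus strand) encodes Fra-1, a Fos protein without the activation domain of FOS. It had the largest fold changes of the 10 members at each exposure time point, 5.14-fold at day 6, 4.01-fold at day 15 and 6.14-fold at day 21. At day 6, FOSL1 stood at 13.1, 20.5 and 23.5 CPM in controls and at 80.7, 64.4 and 148 CPM with IL-1β (log2 fold change 2.36 ± 0.55, edgeR adjusted p = 0.00839). At day 15 it stood at 49.2, 47.5 and 12.8 CPM against 174.8, 184.5 and 79 CPM (log2 fold change 2.00 ± 0.54, adjusted p = 0.0197). At day 21 the values were 38.4, 45.2 and 23.3 CPM against 207, 328 and 120.6 CPM (log2 fold change 2.62 ± 0.55, adjusted p = 0.00213). The FOSL1 calls were lost at all 3 exposure time points without replicate 1 (adjusted p = 0.352, 0.276 and 0.136) and without replicate 2 (0.0947, 0.104 and 0.0996), and at day 15 also in the separate fit (0.128). Groups never overlapped during exposure, but single libraries of a group differed widely, and the controls alone ranged from 9.54 to 70.8 CPM over the whole series.

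After withdrawal FOSL1 had higher means than its controls at all 3 collections and did not pass the test. At day 6 after withdrawal it was at 172, 197.7 and 77.9 CPM against 70.8, 43.5 and 20.7 CPM (log2 fold change 1.74 ± 0.54, adjusted p = 0.0928). When the mitochondrial share was added to the fit as a covariate, FOSL1 had 1.91 and passed (adjusted p = 0.0205), as it did in 4 of 10 alternatives. At day 15 the values were 90.2, 72.1 and 63.6 CPM against 34.1, 43 and 36.2 CPM, without overlap (log2 fold change 1.00 ± 0.53, adjusted p = 0.653). At day 30 they were 66.8, 65.7 and 16.7 CPM against 25.2, 21.5 and 9.54 CPM (log2 fold change 1.41 ± 0.54, adjusted p = 0.341), and the third replicate again lay within the control range. FOSL1 at day 30 was called without replicate 3. Averaged over the 3 collections after withdrawal, FOSL1 was higher by 1.38 (SE 0.31, adjusted p = 0.00317). This average lost its call without replicate 1 or without replicate 2.

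FOSL2 (chr2:28615315-28640184, plus strand) encodes Fra-2 and had the highest level per length in control cells. It took 299 to 717 CPM across the 36 libraries. The controls at day 21 had 537, 486 and 507 CPM and the IL-1β libraries 648, 583 and 678 CPM, so the groups did not overlap, yet the difference was small (log2 fold change 0.32 ± 0.21, adjusted p = 0.673). At day 30 after withdrawal FOSL2 was at 600.1, 564 and 667 CPM against 532, 299 and 479.5 CPM (log2 fold change 0.48 ± 0.21, adjusted p = 0.507), and the control at 299 CPM has a high mitochondrial share. FOSL2 was called at 0 of 6 time points, with log2 fold changes of 0.05 to 0.48. Its average after withdrawal was 0.44 (SE 0.12, adjusted p = 0.0221), below the fold threshold of 2. The adjusted p of this average stayed under 0.05 in 6 of 9 alternatives, and not when any 1 replicate was left out.

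FOS (chr14:75745529-75748933, plus strand), the founding Fos gene, went the other way in sign at all 6 time points, at low counts of 2 to 90 reads per library. At day 6, FOS stood at 3.27, 3.65 and 2.25 CPM in controls and at 2.07, 2.92 and 1.61 CPM with IL-1β (log2 fold change -0.48 ± 0.47, adjusted p = 0.892). At day 15 all 3 IL-1β libraries, at 0.851, 1.1 and 0.724 CPM, lay below the controls at 1.42, 1.63 and 2.62 CPM (log2 fold change -1.06 ± 0.51, adjusted p = 0.281). Day 21 gave 0.815, 0.299 and 1.31 CPM against 1.31, 1.57 and 1.95 CPM (log2 fold change -0.92 ± 0.50, adjusted p = 0.474), where the highest IL-1β library just met the lowest control. At day 6 after withdrawal FOS was at 0.655, 0.232 and 1.1 CPM against 1.03, 0.864 and 2.75 CPM, and 15 days after it at 1.28, 0.727 and 1.16 CPM against 2.73, 1.94 and 0.914 CPM. Both times the groups overlapped. At day 30 the previously exposed cells, at 0.611, 0.91 and 1.82 CPM, again lay below the controls at 1.88, 1.93 and 4.43 CPM (log2 fold change -1.29 ± 0.49, adjusted p = 0.321). Averaged over 3 time points, FOS was lower by a log2 fold change of -0.82 during exposure (SE 0.28, adjusted p = 0.0488) and of -1.11 after withdrawal (SE 0.30, adjusted p = 0.0148). These averages were chosen after seeing the data, and their adjusted p stayed under 0.05 in 4 of 9 alternatives for exposure and in 7 of 9 after withdrawal.

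**Figure D2:**
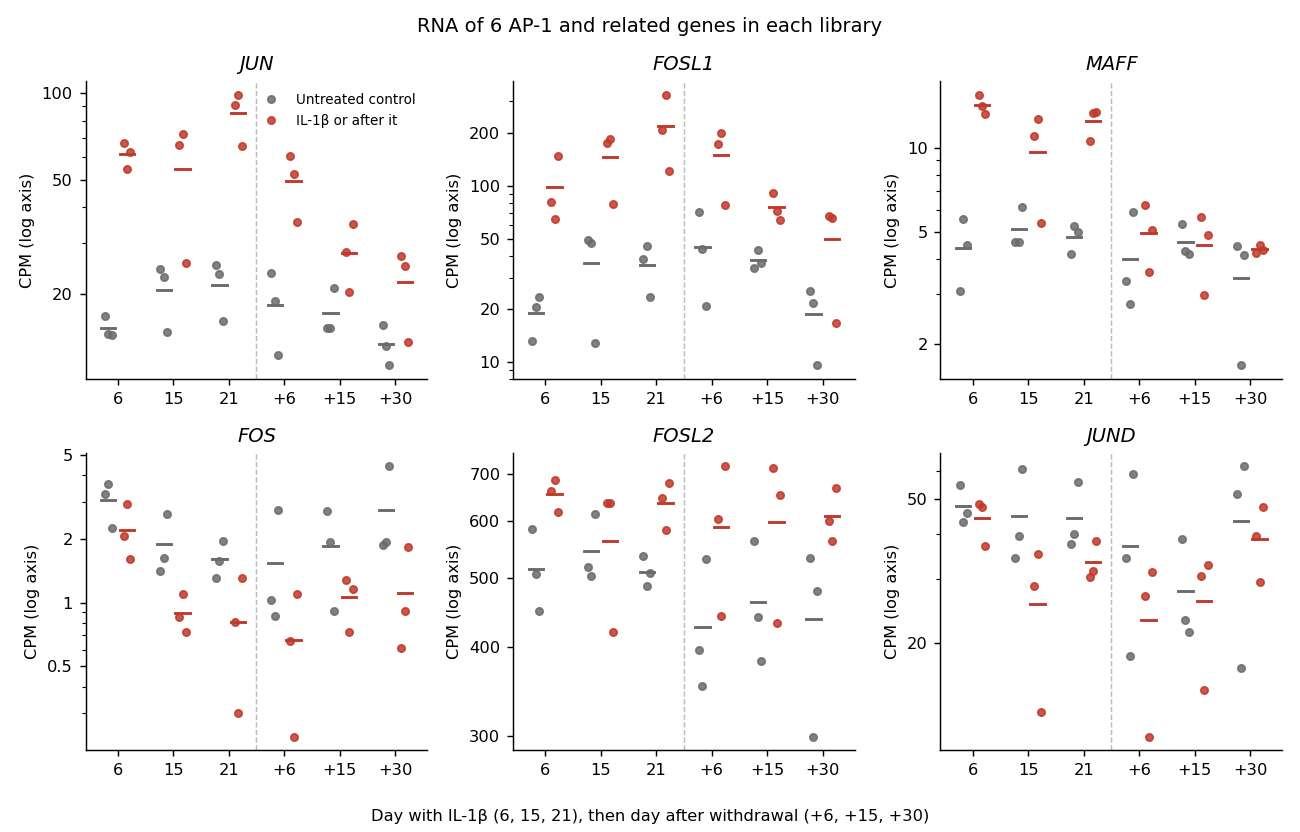
CPM on a log axis (vertical) of 6 members in each library by day with IL-1β and day after withdrawal (horizontal), grey for control and red for IL-1β or cells after it, with a bar at the mean of 3 libraries. JUN and FOSL1 with IL-1β lie above every control of the same day up to day 6 after withdrawal, MAFF returns among its controls after withdrawal, and FOS lies below all its controls at day 15 of exposure and day 30 after withdrawal.

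Of the other Fos and Jun genes, FOSB (chr19:45971253-45978437, plus strand), an immediate early gene, was barely detected. It had 1 to 18 reads per library, at most 0.842 CPM, and 3 or fewer reads in 10 of 36 libraries, so that a small or downward change of FOSB was not detectable at this depth. Its log2 fold changes were between -1.20 ± 0.62 and 0.69 ± 0.65, with 0 calls. JUNB (chr19:12902300-12904129, plus strand), which can restrain c-JUN, was at 18.2, 21.5 and 20.3 CPM in the day 21 controls and at 19.8, 25.8 and 19.2 CPM with IL-1β. Its log2 fold changes ran from -0.52 ± 0.48 at day 15 to 0.56 ± 0.49 at day 15 after withdrawal, and its groups overlapped at all 6 time points. Exons of HOOK2 on the opposite strand overlap 14.2% of those of JUNB. Since the strand setting of the counting is not given in the sources used here, JUNB reads in this overlap may have been left out as ambiguous. JUND (chr19:18390504-18392432, minus strand) stood at 37.5, 40.1 and 55.8 CPM in the day 21 controls and at 30.4, 31.7 and 38.5 CPM with IL-1β. All 6 of its log2 fold changes were negative, from -0.80 ± 0.43 at day 15 to -0.09 ± 0.43 at day 15 after withdrawal, with overlapping groups and 0 calls.

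Among the related genes, MAFF (chr22:38596774-38612514, plus strand) rose at days 6 and 21 of IL-1β and was not called after withdrawal. MAFF is a small Maf protein, which lacks an activation domain and pairs with other bZIP factors such as the NFE2 family. At day 6, MAFF was at 3.07, 5.57 and 4.49 CPM in controls and at 15.5, 14.1 and 13.2 CPM with IL-1β (log2 fold change 1.71 ± 0.32, adjusted p = 0.000783). At day 21 it was at 4.16, 5.25 and 5.02 CPM against 10.5, 13.3 and 13.3 CPM (log2 fold change 1.36 ± 0.31, adjusted p = 0.00471). At day 15 the IL-1β libraries had 11, 12.6 and 5.38 CPM against 4.61, 4.61 and 6.13 CPM (log2 fold change 0.93 ± 0.31, adjusted p = 0.0768). The IL-1β library at 5.38 CPM is again the one with a high mitochondrial share, and without such libraries MAFF passed at day 15 with 1.20. Without replicate 1 the MAFF calls of days 6 and 21 were lost (adjusted p = 0.202 and 0.175), as was that of day 21 without replicate 3 (0.0633). After withdrawal MAFF lay among its controls. It was at 6.23, 3.59 and 5.1 CPM against 3.35, 2.76 and 5.88 CPM at day 6, at 5.64, 2.98 and 4.89 CPM against 5.33, 4.28 and 4.16 CPM at day 15, and at 4.21, 4.49 and 4.3 CPM against 4.46, 1.67 and 4.13 CPM at day 30. The 3 log2 fold changes after withdrawal were between -0.03 and 0.30. Exons of PLA2G6 on the opposite strand overlap 5.8% of those of MAFF.

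ATF3 (chr1:212738676-212794119, plus strand), a stress-induced bZIP repressor, and BATF3 (chr1:212859759-212873182, minus strand), best known for its part in dendritic cell development, were low and not called at any time point. ATF3 was at 2.79, 2.72 and 2.43 CPM in the day 21 controls and at 2.88, 2.77 and 3.04 CPM with IL-1β. Its one sizeable value, a log2 fold change of -0.98 ± 0.34 at day 15 (adjusted p = 0.0857), has controls at 3.19, 2.38 and 9.75 CPM against 2.86, 2.09 and 2.9 CPM, so 1 control library stood apart from all others. BATF3 was at 1.57, 0.609 and 2.01 CPM at day 6 in controls and at 1.66, 2.19 and 3.12 CPM with IL-1β (log2 fold change 0.71 ± 0.30, adjusted p = 0.268). At the other 5 time points its log2 fold changes were between -0.27 and -0.10.

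The separation of groups can be read beside the share of all genes that separate. All 3 IL-1β libraries lay above all 3 controls for 4 of 10 members at day 6 (JUN, FOSL1, FOSL2, MAFF; 10.6% of all genes), 2 at day 15 (JUN, FOSL1; 11.5%) and 4 at day 21 (those of day 6; 13.8%). After withdrawal this held for 2 at day 6 (JUN, FOSL1; 5.51%), 2 at day 15 (FOSB, FOSL1; 6.02%) and 1 at day 30 (FOSL2; 6.78%). The separation of FOSB rests on 7, 5 and 7 reads against 3, 3 and 2 in its controls, which are at the floor of 3 or fewer. All 3 IL-1β libraries lay below all controls only for FOS among the members, at day 15 of exposure and at day 30 after withdrawal. In the order of collection, 11.2%, 13.9%, 15.2%, 5.24%, 4.9% and 5.11% of all genes separated in that direction.

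Whether the response itself changed over time was tested as a difference of log2 fold changes. Between day 6 and day 21 no member's response differed past the thresholds (0 of 10, 0.0104% of all genes), and only BATF3 had an unadjusted p under 0.05 (difference -0.89 ± 0.41). From day 21 to day 6 after withdrawal 0 of 10 differed (0.136% of all genes), with MAFF at -1.07 ± 0.45 as the 1 member with an unadjusted p under 0.05. From day 21 to day 15 after withdrawal, JUN differed by -1.28 ± 0.44 (adjusted p = 0.486), FOSL1 by -1.62 ± 0.74 (adjusted p = 0.887) and MAFF by -1.39 ± 0.45 (adjusted p = 0.355), again 0 calls (0.386% of all genes). To day 30 the differences were -1.27 ± 0.45 for JUN, -1.21 ± 0.75 for FOSL1 and -1.07 ± 0.45 for MAFF, with 0 calls of 10 (0.626% of all genes). DESeq2's Wald test also called 0 of 10 in each of these differences. Among the other alternatives MAFF passed in 2 of these fits and JUN in 1, all for the later collections. The differences share the day 21 libraries. In untreated cells, 0 of 10 members differed between the last and the first collection (0.0104% of all genes) and 0 had an unadjusted p under 0.05.

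Averages over time points use all 18 libraries of a period and take them as independent. If same-numbered libraries came from 1 culture, they are not, and the adjusted p-values of these averages may be too small. Over the 3 exposure time points, 4 of 10 members had an adjusted p under 0.05 (JUN, FOS, FOSL1 and MAFF), beside 15.3% of all genes in either direction. Over the 3 time points after withdrawal it was 4 of 10 (JUN, FOS, FOSL1 and FOSL2), beside 7.71%. The averages with IL-1β were 1.80 ± 0.18 for JUN, 2.33 ± 0.32 for FOSL1 and 1.33 ± 0.18 for MAFF. After withdrawal MAFF averaged 0.19 ± 0.19 (adjusted p = 0.614).

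Levels of different genes were compared per length, as CPM per kilobase of merged exons (RPKM). In the 18 controls FOSL2 was highest, with a mean of 67.3 RPKM (41.7 to 85.9), followed by JUND at 21.2 (8.87 to 32), FOSL1 at 17 (5.06 to 37.5), JUNB at 10.6 (3.02 to 20.2) and JUN at 4.88 RPKM (3.11 to 6.95). BATF3, MAFF, ATF3 and FOS lay close together at 0.786, 0.782, 0.774 and 0.665 RPKM, and FOSB was lowest at 0.0656 RPKM. From JUND down to JUN the ranges of neighbours overlapped, so the order of neighbours there is not beyond the spread of the libraries. The JUND range nevertheless lay above that of JUN, and within each control library JUND had more RNA per length than JUNB or JUN. The ranges of BATF3, MAFF, ATF3 and FOS all overlapped, so their order is not beyond the spread. The FOSL2 range lay above that of JUND, and the FOSB range below that of FOS. Merged exons are longer than the canonical transcript for some genes (2569 against 836 bases for BATF3), which lowers their level per length. At day 21 of IL-1β, FOSL1 reached 115.9 ± 55.3 RPKM (SD, n = 3) beside 88.9 ± 6.8 RPKM of FOSL2, and JUN reached 23.4 ± 4.9 RPKM beside 17.4 ± 2.2 RPKM of JUND. Fos RNA summed over the 4 Fos genes was 90.7 ± 6.1 RPKM in the day 21 controls and 205 ± 48.4 RPKM with IL-1β. The 3 Jun genes summed to 39.9 ± 4.2 and 52.6 ± 4.8 RPKM. In bulk RNA, a change in the number of cells with a transcript and a change in the RNA per cell cannot be told apart.

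The make-up of each family was tested as the share of 1 member in its family's RNA per length, by a two-sided exact permutation test with labels permuted within each time point (8000 regroupings, smallest possible p 0.00025, 14 tests). Shares of one family add up to the whole, so they are not independent. The test also takes the 3 collections of a period as independent. If same-numbered libraries came from 1 culture, they are not, and these p-values may be too small. During exposure JUN took 38.6% of Jun RNA against 13.3% in controls, while JUND took 37.1% against 57.1% (both exact permutation p = 0.00025, Benjamini-Hochberg adjusted 0.000583). JUNB took 24.3% against 29.6% (exact permutation p = 0.00075, adjusted 0.00131). Among Fos RNA, FOSL1 took 45.9% against 17.7%, FOSL2 53.8% against 81.5% and FOS 0.274% against 0.779% (each exact permutation p = 0.00025, adjusted 0.000583). Of the 3 Jun genes, JUN had the smallest mean share in controls and stood beside JUND with IL-1β. At single time points, an exact permutation test of 3 against 3 libraries cannot go below p = 0.1.

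At day 21 JUN took 19.1%, 16.5% and 9.98% of Jun RNA in the controls and 48.6%, 47.2% and 37.2% with IL-1β. In the same libraries FOSL1 took 21.3%, 25.9% and 14.8% of Fos RNA in controls and 54.7%, 68.1% and 40.2% with IL-1β. In neither family did the groups overlap. After withdrawal the shifts were smaller. JUN took 28.3% against 16.7% (exact permutation p = 0.03, adjusted 0.0411), FOSL1 34.5% against 22.2% (p = 0.03, adjusted 0.0411) and FOSL2 65.2% against 76.9% (exact permutation p = 0.0323, adjusted 0.0411). These 3 calls were lost without replicate 1 and without replicate 2, and those of FOSL1 and FOSL2 also without the libraries of high mitochondrial share (exact permutation p = 0.111 each). JUND kept a lower share, 43.2% against 56.9% (exact permutation p = 0.00075, adjusted 0.00131), and so did FOS, 0.241% against 0.822% (exact permutation p = 0.00025, adjusted 0.000583). The FOS share lay below every control of the same collection at all 6 time points. The JUNB share after withdrawal was 28.6% against 26.3% (exact permutation p = 0.406), and FOSB shares gave exact permutation p = 0.177 and 0.0585.

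**Figure D3:**
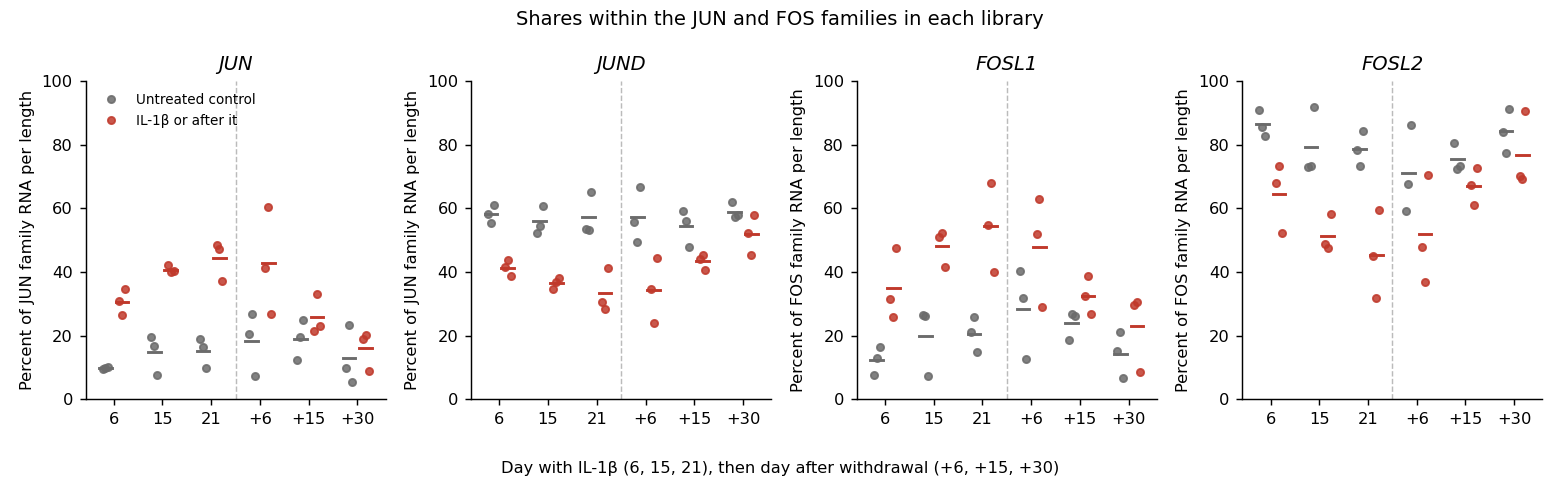
Percent of the family's RNA per length (vertical axis) taken by JUN and JUND of the Jun family and by FOSL1 and FOSL2 of the Fos family, in each library by day with IL-1β and day after withdrawal (horizontal), with a bar at the mean of 3 libraries. With IL-1β (red) JUN and FOSL1 take larger shares than in every control of the same day (grey) on days 6, 15 and 21, and the groups draw together by day 30 after withdrawal.

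Medians of several members differed between control libraries with a high and a low mitochondrial share, with no IL-1β involved. Most of the high control libraries were collected after withdrawal, and most were replicate 2. The difference was not tested, and the share was not separated from collection or replicate. JUNB had a median of 10.6 CPM in the 6 high control libraries (5.53 to 25.8) and 21.1 CPM in the 12 others (17.4 to 37), and JUND 22.3 CPM (17.1 to 43.2) against 48.8 CPM (34.3 to 61.8). FOSL2 had medians of 389 CPM (299 to 507) and 524 CPM (449 to 615). FOSL1 had 39.6 CPM (20.5 to 70.8) in the high libraries and 24.3 CPM (9.54 to 49.2) in the others, with overlapping ranges. JUN was alike in both, at 17 and 15.8 CPM. Without the 11 libraries, log2 fold changes of JUN were 2.00, 1.75, 1.88 and 1.98 from day 6 of exposure to day 6 after withdrawal, all called, and those of FOSL1 were 2.43, 2.31 and 2.22 during exposure, all called. At day 6 after withdrawal FOSL1 had 2.60 without them, against a single control library, and was not called (adjusted p = 0.114).

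**Figure D4:**
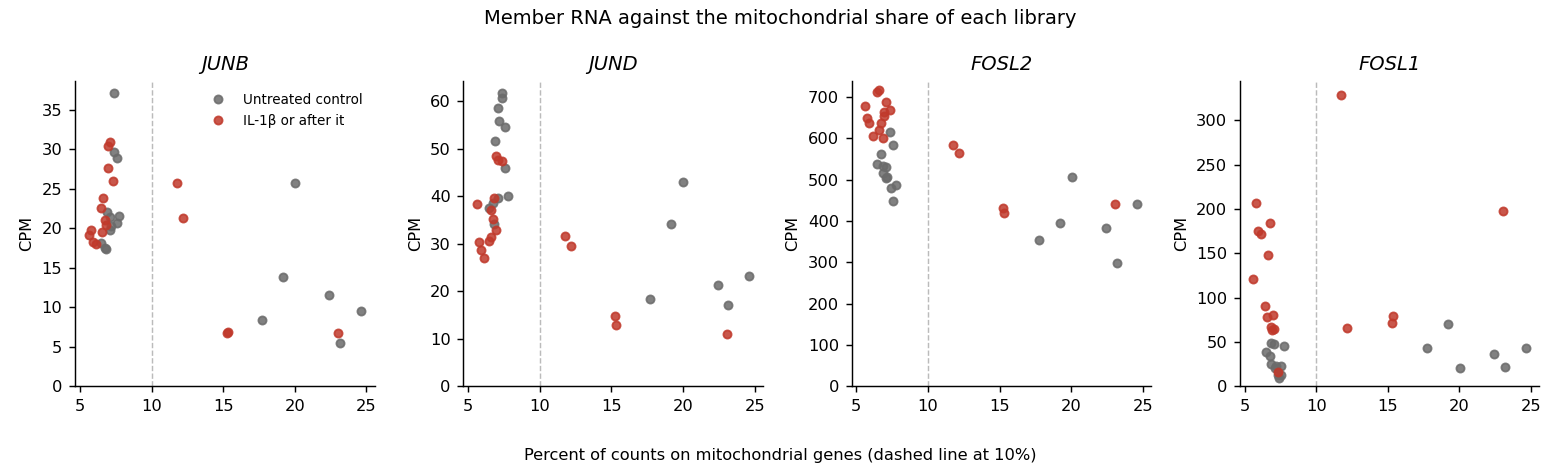
CPM (vertical axis) of JUNB, JUND, FOSL2 and FOSL1 in each of the 36 libraries against the percent of its counts on mitochondrial genes (horizontal axis), grey for control and red for IL-1β or cells after it. To the right of the dashed line at 10%, JUNB and JUND lie low in most libraries of both groups, whereas FOSL1 with IL-1β includes its highest library at 328 CPM.

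Some genes of the surrounding pathways were called too, to be read beside the 1.52%, 1.94% and 2.19% of all genes called higher and the 1.25%, 2.3% and 2.06% called lower at the 3 exposure time points. At the 3 collections after withdrawal, 1.08%, 0.594% and 0.433% were called higher and 0.725%, 0.36% and 0.464% lower. Genes named here and not called at day 21 were chosen after their values were seen. Of 29 other bZIP genes tested, 2, 3, 2, 1, 0 and 0 were higher in the order of collection, and 2 were lower at day 15 (DDIT3 and DBP) and 0 at the other times by edgeR and by DESeq2's Wald test, with 1 to 3 lower there at an unadjusted p under 0.05. At days 15 and 30 after withdrawal 1 to 2 were higher at an unadjusted p under 0.05 and 0 by the Wald test. The higher genes were CREB5 and NFE2L3 at day 6, these and CREB3L1 at day 15, CREB5 and CREB3L1 at day 21 and CREB3L1 at day 6 after withdrawal. CREB5, which binds cyclic AMP response elements, was at 3.65 ± 0.22 CPM in day 21 controls and 19.8 ± 7.5 CPM with IL-1β (SD, n = 3; log2 fold change 2.44, edgeR adjusted p = 9.15e-07). After withdrawal CREB5 was not called (0.79, -0.49 and -1.07), whereas CREB3L1, a membrane-bound factor released by cleavage, had 1.85 at day 21 and 1.57 at day 6 after withdrawal.

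Of 18 genes of the JNK and p38 cascade, 2 were higher and 1 lower at each exposure time point, 2 were higher 6 days after withdrawal and 0 were called later by edgeR. At those later collections 1 to 2 were higher and 1 lower at an unadjusted p under 0.05, and DESeq2's Wald test called 1 lower at day 30. The p38 kinase gene MAPK13 was higher at all 3 exposure time points (1.96 at day 21), and MAP2K6, whose kinase activates p38, was lower at all 3 (-1.47 at day 21). MAPK13 was low, at 0.411 ± 0.148 CPM in day 21 controls and 1.64 ± 0.13 CPM with IL-1β (SD, n = 3). Its control means were 0.263 to 0.411 CPM over the 6 time points, so MAPK13 passed the filter on low counts mainly through IL-1β libraries. Its higher calls among the 18 were thus close to fixed in advance. MAP3K5, which encodes the upstream kinase ASK1, was higher at day 15, day 21 (1.32) and day 6 after withdrawal, and MAP2K3 at day 6 of exposure and day 6 after withdrawal. Of 13 ERK cascade genes 0 were higher at any time point by edgeR or by DESeq2's Wald test, with 0 to 1 higher at an unadjusted p under 0.05. KSR1, a scaffold of that cascade, was lower at day 15, and the kinase gene MAP3K8 at days 6 and 30 after withdrawal. Of 18 genes of the SRF axis and other immediate early genes, ELK3 was higher and NR4A3 lower at day 15 and 0 were called at the other 5 time points by either tool, where 1 to 3 were higher and 1 to 2 lower at an unadjusted p under 0.05. Of 7 heat shock genes 0 were called at any time point by either tool, and 1 was higher at an unadjusted p under 0.05 each time.

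Of 22 genes listed as textbook AP-1 targets, 16 passed the filter on low counts and were tested. This list was chosen with earlier results of these data known. Of these 16, 10, 8 and 11 were higher at days 6, 15 and 21, beside 1.52%, 1.94% and 2.19% of all genes. After withdrawal 4 were higher at day 6, among them IL6, IL11 and TNC, and 2 at days 15 and 30 (IL6 and TNC). The shares of all genes called higher at these collections were 1.08%, 0.594% and 0.433%. The number lower was 0 by edgeR and by DESeq2's Wald test at each time point, with 1 lower at an unadjusted p under 0.05 at day 30 after withdrawal and 0 before. The 11 of day 21 included IL6, IL11, TNC, PLAU, PLAUR, CXCL8, CSF2, HMGA2 and CD44. For all 16 the median log2 fold change went from 1.42, 1.28 and 1.37 to 0.83, 0.50 and 0.37, beside medians near 0 for all genes. Many are also targets of NF-κB, so the list does not single out AP-1. CXCL8, a neutrophil chemokine, went from 0.697 ± 0.139 to 84.5 ± 13.8 CPM at day 21 (SD, n = 3; log2 fold change 6.91) and had 1.36 at day 6 after withdrawal, not called. The cytokine gene IL6 had 5.55 at day 21 and stayed called at 2.74 at day 30 after withdrawal (adjusted p = 0.00759), and the matrix gene TNC had 4.42 and 2.60 (adjusted p = 0.0173). CSF2 had 2.06 ± 0.66 CPM at day 21 of IL-1β against 0.0714 ± 0.0383 CPM in controls (SD, n = 3). At this control level CSF2 passed the filter on low counts only through IL-1β libraries. Its calls among the 16 were thus close to fixed in advance.

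The study places SNAI2, which encodes the EMT factor SLUG, downstream of AP-1. SNAI2 was at 1.98 ± 0.47 CPM in controls and 6.12 ± 0.98 CPM with IL-1β at day 6, just short of the call (log2 fold change 1.64, edgeR adjusted p = 0.0505), and DESeq2's Wald test called both SNAI2 and ZEB2 higher that day. It was called at day 15 (2.83), day 21 (3.23) and 6 days after withdrawal (2.86), and not at 15 (1.23) or 30 days (0.80) after it. The EMT factor gene ZEB2 rose to 2.08 at day 21, and CDH1, which encodes E-cadherin, fell from 196.5 ± 14.7 to 41.6 ± 19 CPM (SD, n = 3; log2 fold change -2.24, called). At day 6 after withdrawal ZEB2 and CDH1 were still called (1.43 and -1.29), and at day 30 they had 0.78 and -0.61, neither called. All 3 previously exposed libraries still lay below all 3 controls for CDH1 at days 15 and 30, as for 4.9% and 5.11% of all genes. At day 30 CDH1 was at 173 ± 49.9 CPM against 263.7 ± 23.5 CPM (SD, n = 3), while the ZEB2 groups overlapped at both times.

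Among tested genes outside the members, the 5 whose 12 group means of log2 CPM correlated best with those of FOSL1 were MARCHF4 (Pearson r = 0.988), TAP2 (0.987), MICAL2 (0.985), TRIO (0.983) and KIAA1549L (0.983). MARCHF4 encodes a membrane ubiquitin ligase, TAP2 a peptide transporter of antigen presentation, MICAL2 an enzyme acting on actin and TRIO a guanine nucleotide exchange factor. MARCHF4 had a log2 fold change of 2.57 at day 21 and 1.81 at day 30 after withdrawal, while TAP2 had 0.81 and 0.51. Of the members, JUN had an r of 0.945 with FOSL1, MAFF 0.733, FOSL2 0.675, JUND -0.592 and FOS -0.818. These correlations describe 12 means made from the same 36 libraries and share the division into control and IL-1β.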

How the data were processed

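RNA of A549 cells was sequenced in 36 libraries, with 3 replicates in each of 12 groups of treatment and time. The authors deposited, for each library, whole-number counts of reads per Ensembl gene without normalization, made from single-end HiSeq reads of stranded mRNA libraries aligned to GRCh37. The submitters' processing notes name bcl2fastq 2.17, TopHat2 2.0.14, Bowtie2 2.2.5 and HTSeq 0.6.1, while the strand setting and annotation release are not given in the sources used here. Reads on no gene (8.48% to 18.6%) and ambiguous reads (2.62% to 4.18%) were left out, which lowers values of overlapping genes. Counts on genes were 9116032 to 23570026 per library (median 15902700).

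From these counts, genes were filtered with filterByExpr (19180 of 63677 listed, 39471 with any count), scaled by TMM and tested with edgeR 4.0.16 (quasi-likelihood, R 4.3.3, limma 3.58.1) in 1 fit of all libraries and 12 groups with 24 residual degrees of freedom. Comparisons were IL-1β against control at each time point, and differences of these responses. Calls needed an adjusted p under 0.05 and a fold change over 2. DESeq2 1.42.0 was an alternative. CPM used the TMM scaling, and RPKM divided them by merged exon length in GENCODE v44lift37, from which positions come. Family shares were tested by exact permutation in Python 3.11.15 with scipy 1.17.1. A gene with 3 or fewer counts was taken as at the floor, which covers counting error only. Motifs were searched in RefSeq windows of GRCh38.p14, whose coordinates were not mixed with those of GRCh37.

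The model was checked on simulated counts for day 21. Among 19180 genes, 179 of 200 changed by a log2 fold change of 2 were recovered, beside 4 false calls. The test of a response difference recovered 140. No pair of libraries was identical (0 pairs). The alternatives were DESeq2's size factors, its Wald test, no filter, a separate fit of each time point, the replicate number as a block, the 11 libraries with over 10% mitochondrial counts left out or as a covariate, and each replicate left out. Averages over time points and canonical transcript lengths were added after seeing the data. Named genes were the 10 members, SNAI2, ZEB2 and CDH1, up to 4 genes of each list with the largest called change at day 21, and the 5 genes most like FOSL1. The members and lists were chosen with earlier results of these data known. PECAM1 was matched to no identifier and left out of the markers. Some genes of the lists are counted but not reported here by name.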

Additional observations from a re-analysis of the deposited data

How the results depend on the processing

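Of 600 alternative log2 fold changes of single members at single time points, 546 kept their direction and side of the thresholds, 7 gained a call, 16 lost one and 31 changed sign, none of them of a called value. Of 218 alternative counts and shares, 192 were the same, 18 moved and 8 lost significance. The cause of these changes was not tested, apart from the smaller number of libraries in some fits.

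The number of members past both thresholds at day 15 was 0 in the separate fit of each time point. At day 6 after withdrawal it was 2 with DESeq2's Wald test, 2 with the covariate and 0 in the separate fit. Leaving out each replicate gave 1 to 3 members at day 6, 0 to 2 at day 15, 1 to 2 at day 21, 0 to 2 at day 6 after withdrawal and 0 to 1 at day 30 after it. MAFF differed from its day 21 response at day 15 after withdrawal with the covariate (1 member) and at day 30 without the libraries of high mitochondrial share (1 member), and leaving out replicates gave 0 to 1 at day 15. The average after withdrawal passed for 0 to 3 members when a replicate was left out, 0 without replicate 1 and JUN alone without replicate 2. With the replicate block, 2 members (JUN and FOSL1) passed at day 6 after withdrawal, and no other count of calls moved by over 1.5 times. Same-numbered libraries had correlated deviations from their group means in 14 of 18 pairs (r over 0.1, range -0.34 to 0.72), and 16 of 18 controls correlated best with their own number, a hint from the data and not from the design.

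Without the libraries of high mitochondrial share, the differences in share after withdrawal were 15.7 percentage points for FOSL1 and -14.8 for FOSL2 (exact permutation p = 0.111 each). Leaving out replicates gave 9.92 to 13.9 points for JUN, 9.76 to 15.4 for FOSL1 and -14.8 to -9.15 for FOSL2, and each of the 3 lost significance without replicate 1 and without replicate 2.

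Log2 fold changes that reversed were all uncalled. With the 11 high-mitochondrial libraries left out they were JUNB at day 21 (-0.0228) and at days 6 (-0.19) and 30 (-0.34) after withdrawal, FOSB (0.28) and ATF3 (-0.0578) at day 30 after it, and MAFF at days 6 (-0.0451) and 30 (-0.008) after it. With the covariate they were JUNB at day 6 (-0.14) and at day 6 after withdrawal (-0.26). Leaving out replicates gave, during exposure, JUNB -0.87 to 0.0898 at day 15, FOSB -0.16 to 1.42 at day 6, -0.36 to 0.0733 at day 15 and -0.76 to 0.40 at day 21, FOSL2 -0.0862 to 0.33 at day 15, ATF3 -0.038 to 0.63 at day 6 and BATF3 -0.31 to 0.0069 at day 15. After withdrawal it gave JUNB -0.18 to 0.18 at day 6 and -0.35 to 0.55 at day 30, JUND -0.45 to 0.0782 at day 15, FOSB -1.14 to 0.25 at day 30, ATF3 -0.05 to 0.49 at day 6 and -0.0654 to 0.24 at day 30, MAFF -0.16 to 0.11 at day 15 and -0.018 to 0.53 at day 30, and BATF3 -0.27 to 0.0776 at day 30. Depth limits FOSB, FOS, ATF3, MAFF and BATF3, whose libraries held as few as 1, 2, 14, 13 and 7 reads.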
